A study of Homo sapiens with 46 samples.

Results

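The Nodal and activin branch of TGF-beta signalling was followed here through 10 genes in cells of the H1 human embryonic stem cell line and in 3 lineages derived from it. The members were the ligand NODAL, its secreted inhibitors LEFTY1 and LEFTY2, the type I receptor ACVR1B, the type II receptors ACVR2A and ACVR2B, and the intracellular SMAD2, SMAD3, SMAD4 and SMAD7. They were taken by gene name from 4 count tables, 1 for each cell type, which together held 21071 gene names. A member's value is the sum over the transcripts assembled for it, given as CPM (the count as a share of the library's total count, on the usual CPM scale). All 10 members had rows in the tables of undifferentiated cells (hPSC) and endoderm, with 20 and 17 transcripts. The ectoderm and mesoderm tables each held 7 members, with 25 and 21 transcripts. NODAL, LEFTY1 and LEFTY2 had no row among the ectoderm or mesoderm transcripts analysed here. The fifth table, in which the ectoderm libraries were counted against an assembly combined over cell types, held all 10.

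The hPSC were grown in mTeSR1 on Matrigel. Endoderm was made in RPMI with FBS, WNT3A and activin A at 100 ng/ml. Mesoderm was made in DMEM/F12 with FBS, VEGF and BMP4 at 100 ng/ml each and bFGF at 10 ng/ml, and with activin A at 100 ng/ml in the first 24 h only. Ectoderm was made in DMEM/F12 with KOSR and 3 inhibitors at 2 µM each: A83-01, which blocks the type I receptors of this pathway, PNU-74654, which acts on Wnt signalling, and dorsomorphin, which acts on BMP signalling, and was collected after 5 days. The media thus act on the pathway itself, and lineage and added activin or inhibitor cannot be told apart. Each cell type was split into cytoplasm, nucleus, nucleoplasm and chromatin, with 3 libraries in 15 of the 16 groups and 1 library of mesoderm nucleoplasm, which entered no test. The labels number the libraries only as repeats of one cell line, so the p-values measure the spread between these samples, which may be technical.

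NODAL and activin bind a type II receptor (ACVR2A or ACVR2B), which then phosphorylates the type I receptor ACVR1B. ACVR1B phosphorylates SMAD2 and SMAD3, which join SMAD4 and enter the nucleus, where partners such as FOXH1 bring them to DNA. NODAL, the LEFTY genes and SMAD7 are themselves known targets of this signal: NODAL feeds it forward, LEFTY proteins block NODAL outside the cell, and SMAD7 blocks the receptors from within. The pathway supports the undifferentiated state of human stem cells, and stronger activation is used to make definitive endoderm.

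Promoter sequence is shown for 3 members whose levels set the lineages apart: NODAL, which was higher in endoderm than in hPSC, SMAD7, which was high in endoderm and mesoderm, and ACVR1B, which was lowest in mesoderm. Of the 10 members, 8 had a window of 250 bases before to 50 bases after a start in the RefSeq promoter table (GRCh38.p14). LEFTY1 and LEFTY2 had none. Capitals mark matches on either strand to the SMAD-binding letters CAGAC and GGCGC. The palindrome GGCGCC was counted once for each strand. The NODAL window, at chr10:70441632-70441931 on the minus strand, held 1 CAGAC match and no GGCGC match.
NODAL: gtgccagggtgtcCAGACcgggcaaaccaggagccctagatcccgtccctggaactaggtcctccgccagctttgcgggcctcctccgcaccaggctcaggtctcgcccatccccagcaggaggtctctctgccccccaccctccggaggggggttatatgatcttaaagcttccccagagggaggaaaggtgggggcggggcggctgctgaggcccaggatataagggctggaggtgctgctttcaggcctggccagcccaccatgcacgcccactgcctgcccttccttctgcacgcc
The first of the listed SMAD7 windows, at chr18:48950916-48951215 on the minus strand, held 2 CAGAC matches.
SMAD7: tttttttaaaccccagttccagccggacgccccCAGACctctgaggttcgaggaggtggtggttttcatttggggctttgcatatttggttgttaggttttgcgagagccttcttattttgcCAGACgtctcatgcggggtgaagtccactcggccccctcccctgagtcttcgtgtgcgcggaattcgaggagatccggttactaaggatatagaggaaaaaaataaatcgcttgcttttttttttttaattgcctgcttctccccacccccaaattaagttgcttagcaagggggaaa
The first ACVR1B window, at chr12:51951449-51951748 on the plus strand, held 13 GGCGC matches and no CAGAC match, and 82.3% of its bases were G or C, against 66.0% for NODAL and 48.3% for SMAD7.
ACVR1B: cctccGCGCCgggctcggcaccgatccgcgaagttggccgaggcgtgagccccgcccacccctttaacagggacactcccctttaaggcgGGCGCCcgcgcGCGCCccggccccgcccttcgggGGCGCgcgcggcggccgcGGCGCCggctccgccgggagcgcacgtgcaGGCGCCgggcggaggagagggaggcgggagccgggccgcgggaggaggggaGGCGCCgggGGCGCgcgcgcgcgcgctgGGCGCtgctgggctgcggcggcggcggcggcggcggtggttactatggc
Among all 35116 windows of this length in that table, 45.3% held CAGAC and 48.6% held GGCGC, so that either match is common. The FOXH1 letters TGTGNATT stood in 3.3% of all windows and in none of those of the 8 members. These matches describe letters only and show no binding.

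The libraries held 4990408 to 21298678 counts. The 45 pairs of repeats all differed by more than counting noise. The endoderm and ectoderm marker lists followed the labels, but listed genes without a row in a cell type are missing from its sum. In endoderm 6 endoderm genes summed to 206 to 548 CPM, against at most 5.21 in mesoderm (1 gene). In ectoderm 5 ectoderm genes summed to 470 to 751 CPM. Against this stood at most 63.0 in hPSC (1 gene), 39.2 in endoderm (2 genes) and 59.15 in mesoderm (2 genes). The mesoderm list was highest in mesoderm only in cytoplasm. Its 4 genes with rows in mesoderm summed to 134 to 141 CPM in cytoplasm, most of it HAND1 (132 on average), but to 40.4 to 48.5 in nucleus, below hPSC nucleus (396 to 469, 3 genes, led by KDR) and endoderm nucleus (156 to 216, 5 genes). In mesoderm TBXT was near 0 (0.13 CPM in cytoplasm) and KDR was not among the transcripts analysed here. The pluripotency list summed to 2933 to 6165 CPM in hPSC (6 genes), 1402 to 2791 in ectoderm (5 genes), 897 to 4755 in endoderm (5 genes) and 752 to 2734 in mesoderm (4 genes), so every derived cell type kept part of it. Its POU5F1 averaged 2954 CPM in hPSC cytoplasm, 1765 in endoderm, 892 in mesoderm and 6.2 in ectoderm. The part of this in the results was not tested. The fractions did not separate the way their names say in every cell type. The column code taken as nucleus is not spelled out in the labels and was assigned because the 3 other codes name the other fractions. The nuclear RNA MALAT1 averaged 81.6 CPM in the hPSC libraries so labelled and 232 in hPSC cytoplasm, while nucleoplasm held 819. The mitochondrial MT-ND1 averaged 4966 CPM in hPSC nucleus and 116 in hPSC cytoplasm, but 394 in mesoderm nucleus and 2068 in mesoderm cytoplasm. Summed over the 4 or 5 measured nuclear RNAs, levels were 851 to 1098 CPM in hPSC nucleus against 887 to 903 in cytoplasm, 118 to 494 against 1409 to 2537 in ectoderm, 123 to 496 against 514 to 712 in endoderm, and 1269 to 1843 against 615.8 to 761.6 in mesoderm. A list of 9 cytoplasmic RNAs summed to 66100 to 76270 CPM in hPSC nucleus against 44500 to 44990 in hPSC cytoplasm. In ectoderm the sums were 76360 to 97290 against 45610 to 49550, and in endoderm 43700 to 80270 against 40480 to 45380. In mesoderm they were 16250 to 19510 against 70270 to 73770. Both lists thus followed the labels nucleus and cytoplasm in mesoderm only, and whether the other libraries match these labels was not tested. Each cell type was counted on its own transcript assembly, so a difference between cell types and one between assemblies cannot be told apart. Ectoderm was counted on the combined assembly as well, but the other cell types were not. Its comparisons with them therefore cross assemblies on either count. In such bulk samples, fewer cells of a type and less RNA per cell cannot be told apart either.

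NODAL (ENSG00000156574, chr10:70432315-70447951 on GRCh38, minus strand) was a low transcript in undifferentiated cells and a prominent one in endoderm. In hPSC nucleus its 3 libraries held 2.87, 2.59 and 2.47 CPM, and in endoderm nucleus 58.6, 53.6 and 55.2. In nucleoplasm the values were 1.195, 2.00 and 0.712 CPM in hPSC and 32.5, 34.1 and 32.5 in endoderm. On chromatin they were 1.77, 1.96 and 2.96 against 26.0, 17.0 and 19.0 CPM, and in cytoplasm 2.52, 1.87 and 1.39 against 13.5, 11.1 and 10.8. No hPSC library reached the lowest endoderm library of its fraction. Tests used edgeR's quasi-likelihood model on counts with TMM scaling (a correction for differences in RNA composition), and a change is called at a Benjamini-Hochberg adjusted p under 0.05. Since NODAL and the LEFTY genes had no row in 2 tables, they were tested in fits of hPSC and endoderm alone. In nucleus the log2 rise of NODAL was 4.84 (SE 0.25, adjusted p = 1.08e-06) and in nucleoplasm it was 5.17 (SE 0.19, adjusted p = 2.13e-15). It rose by 3.46 on chromatin (SE 0.27, adjusted p = 2.65e-05) and by 2.49 in cytoplasm (SE 0.25, adjusted p = 1.91e-05). The log2 rise stayed between 1.97 and 5.65 and called under each of the 11 alternatives run per fraction.

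LEFTY1 (ENSG00000243709, chr1:225886282-225911382, minus strand) followed at a lower level. Its endoderm nucleus libraries held 8.73, 4.69 and 6.35 CPM and its hPSC nucleus libraries 0.502, 0.518 and 1.02. In endoderm nucleoplasm it held 3.98, 3.13 and 4.27 CPM against 0.558, 0.214 and 0.213 in hPSC. On endoderm chromatin replicate 1 stood apart at 7.55 CPM beside 2.03 and 2.72, and all 3 were above the hPSC libraries (0.633, 0.945 and 0.390). LEFTY1 rose by 3.72 in nucleus (SE 0.48, adjusted p = 0.000204), 4.03 in nucleoplasm (SE 0.40, adjusted p = 1.54e-08) and 2.88 on chromatin (SE 0.60, adjusted p = 0.00337) on the log2 scale. It entered these fits mainly through its endoderm libraries and had to differ, so the p-values support nothing. In cytoplasm it did not pass the filter on low counts: endoderm held 0.871, 0.426 and 0.439 CPM and hPSC 0.840, 0.067 and 0.199, and the groups overlapped.

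LEFTY2 (ENSG00000143768, chr1:225936598-225941489, minus strand) was the lowest member in TPM in both hPSC cytoplasm and endoderm nucleus. Its endoderm nucleus libraries held 2.48, 1.84 and 1.34 CPM against 1.00, 0.739 and 0.444 in hPSC, and its endoderm nucleoplasm libraries 1.26, 1.81 and 1.53 against 0.637, 0.214 and 0.569. It rose by 1.84 in nucleus (SE 0.49, adjusted p = 0.011) and by 2.20 in nucleoplasm (SE 0.46, adjusted p = 0.000222) on the log2 scale. The nucleus call was lost without hPSC nucleus replicate 3 (log2 1.58, adjusted p = 0.0523). LEFTY2 too entered these fits mainly through endoderm, so its p-values support nothing either. In cytoplasm and on chromatin it was too low to test. LEFTY1 and LEFTY2 are close copies, so the split of reads between them is uncertain.

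Counted as a group, 1 of these 3 genes could be tested in cytoplasm, 3 in nucleus, 2 on chromatin and 3 in nucleoplasm, and each tested one was higher in endoderm. The same fits called 50.9% of all genes in cytoplasm (26.1% as higher), 51.2% in nucleus (26.2%), 63.7% on chromatin (31.8%) and 77.7% in nucleoplasm (38.5%). Genes this low in hPSC can enter such a fit through their endoderm libraries alone. LEFTY1 and LEFTY2 held 3 to 16 counts in the hPSC libraries of the fractions tested, about the filter's minimum of 10 or below it. They entered mainly through endoderm and had to differ, so these counts are a description and support nothing.

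In ectoderm, counted on the combined assembly, the 3 genes gave few or no counts. NODAL had 0, 0 and 0 counts in the nucleoplasm libraries, 1, 4 and 0 in nucleus, 0, 6 and 0 in cytoplasm and 5, 0 and 0 on chromatin. Taking 3 counts per library as the smallest measurable level (0.244 CPM on average in nucleoplasm), NODAL was at least 135-fold higher in endoderm nucleoplasm and at least 5.32-fold higher in hPSC nucleoplasm than in ectoderm. LEFTY1 and LEFTY2 had 0 counts in all 3 ectoderm nucleus libraries, which made endoderm nucleus at least 28.3-fold higher for LEFTY1 and at least 8.11-fold higher for LEFTY2. LEFTY1 had 3, 3 and 14 counts on ectoderm chromatin, its highest there. In hPSC, where LEFTY1 was low too, chromatin held 10, 13 and 5 counts and cytoplasm 7, 1 and 3, and ectoderm cytoplasm held 5, 5 and 0. A fit of hPSC and ectoderm on the combined assembly without the filter, chosen after seeing the data, did not call LEFTY1 on chromatin (log2 -0.42, adjusted p = 0.602), in cytoplasm (log2 -0.71, adjusted p = 0.577) or in nucleoplasm (log2 -2.04, adjusted p = 0.107). It called LEFTY1 lower in nucleus (adjusted p = 0.00252), where the ectoderm libraries held 0 counts and the hPSC libraries 7, 7 and 16. The same fit called NODAL lower in ectoderm in each fraction, by 4.02 in cytoplasm (adjusted p = 0.00129) and 4.36 in nucleus (adjusted p = 0.000155). LEFTY2 was called lower except on chromatin (log2 -2.10, adjusted p = 0.163). Of all genes, this fit called from 8986 of 14947 in nucleus to 11305 of 14954 in nucleoplasm. The fold bounds and these fits set values from separately assembled tables side by side, and the bounds cover counting error only.

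**Figure D1:**
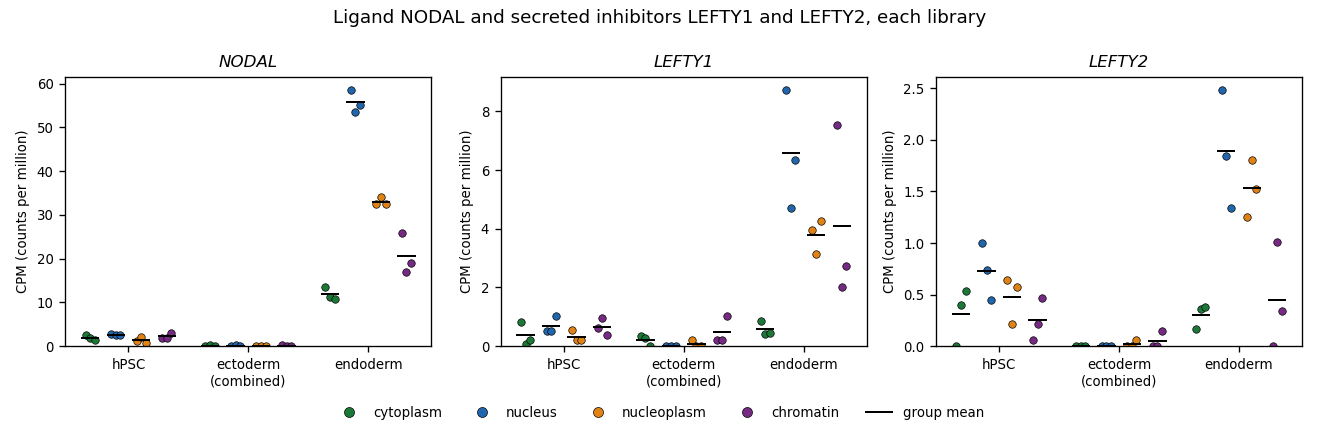
CPM (vertical axis, from 0) of NODAL, LEFTY1 and LEFTY2 in each library of hPSC, ectoderm (counted on the combined assembly) and endoderm, coloured by fraction, with a line at each group mean of 3 libraries. NODAL lies at 53.6 to 58.6 CPM in endoderm nucleus and at or below 2.96 CPM in every hPSC library.

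ACVR1B (ENSG00000135503, chr12:51951667-51997078, plus strand), also called ALK4, is the type I receptor that passes the signal on. It was highest in endoderm and lowest in mesoderm. Its cytoplasm libraries held 51.9, 47.7 and 40.2 CPM in endoderm, 35.4, 28.8 and 32.5 in ectoderm, 20.3, 21.5 and 27.0 in hPSC, and 2.54, 3.44 and 1.70 in mesoderm. Its nucleus libraries held 136, 125 and 151 CPM in endoderm, 68.1, 82.95 and 87.5 in hPSC, 59.3, 51.9 and 63.9 in ectoderm, and 5.53, 6.27 and 7.93 in mesoderm. The 4 cell types did not overlap in either fraction. Between a derived cell type and hPSC, 59.5% to 75.4% of all genes tested did not overlap in cytoplasm and 66.7% to 73.2% in nucleus. The share for all 4 cell types at once was not computed. The tests of the 7 genes present in all 4 tables used 1 fit per fraction over all cell types. Against hPSC, ACVR1B fell by 3.19 in mesoderm cytoplasm (SE 0.19, adjusted p = 1.94e-09), by 3.76 in nucleus and by 2.97 on chromatin on the log2 scale. In endoderm it rose by 0.85 in cytoplasm, 1.17 in nucleus, 0.69 on chromatin and 1.68 in nucleoplasm, the last with SE 0.07 and adjusted p = 3.01e-16. The chromatin rise was lost with the authors' TPM values (log2 0.46). The mesoderm table held only transcripts of ACVR1B that carry no Ensembl transcript name, the leading one estimated at 3570 bases from its ratio of count to TPM. In the tables of the other cell types, 97.6% to 100% of its counts went to the transcript ENST00000257963, estimated at 4640 to 4790 bases. The fall in mesoderm was also seen on the length-corrected TPM scale, at log2 changes of at least 1.74 in size in each fraction. In ectoderm the changes were small: ACVR1B differed by 0.40 in cytoplasm, -0.45 on chromatin and -0.35 in nucleoplasm, each called, and by -0.39 in nucleus, not called (adjusted p = 0.0671). Of these, the cytoplasm call was lost in 4 of 13 alternatives, the chromatin call in 7 and the nucleoplasm call in 1.

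ACVR2A (ENSG00000121989, chr2:147844517-147930826, plus strand), a type II receptor for activin, had the lowest length-corrected level (TPM) of the 3 receptors in the cytoplasm of hPSC, ectoderm and endoderm. In nucleoplasm its libraries held 28.1, 25.4 and 26.4 CPM in hPSC, 12.8, 12.04 and 15.6 in ectoderm, and 26.6, 22.7 and 28.4 in endoderm, so that ectoderm stood below both others. In cytoplasm mesoderm held 15.6, 15.6 and 13.5 CPM, above hPSC (5.28, 6.95 and 6.17), ectoderm (9.60, 5.83 and 7.15) and endoderm (9.15, 5.78 and 5.08), which overlapped one another. Against hPSC, ACVR2A fell in ectoderm by 1.37 in nucleus (SE 0.27, adjusted p = 0.000554) and by 1.02 in nucleoplasm (SE 0.12, adjusted p = 4.64e-08). It rose in mesoderm by 1.21 in cytoplasm (SE 0.21, adjusted p = 0.000136) and by 1.10 on chromatin (SE 0.22, adjusted p = 0.000907). Those 4 calls held in every alternative run. In mesoderm nucleus the log2 change was 0.75 (adjusted p = 0.0225) and was lost in 4 of 12 alternatives. In endoderm the direction depended on the scale. On counts it was -0.06 in cytoplasm (not called) and -0.78 in nucleus (adjusted p = 0.0201), whereas on TPM it was 1.17 in cytoplasm and 0.35 in nucleus. The endoderm table held 1 transcript of ACVR2A, with no Ensembl name and an estimated 2040 bases, against 6060 in hPSC.

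ACVR2B (ENSG00000114739, chr3:38453851-38493142, plus strand), the other type II receptor, had the highest length-corrected level (TPM) of the 3 receptors in the cytoplasm of each cell type. Nucleoplasm libraries held 285, 290 and 267 CPM in hPSC, 262, 252 and 231 in ectoderm and 154, 155 and 147 in endoderm. In nucleus endoderm held 20.5, 58.7 and 56.8 CPM against 145, 169 and 154 in hPSC, and replicate 1 was low among the endoderm libraries. In cytoplasm ectoderm held 229, 167 and 193 CPM, above hPSC (82.1, 106 and 132). The test gave -1.49 in endoderm nucleus (SE 0.28, adjusted p = 0.000472) and -1.21, still called, without endoderm nucleus replicate 1. On chromatin it gave -1.09 (adjusted p = 0.00119). Both calls were lost on TPM, at -0.49 and -0.30 (adjusted p = 0.239 and 0.334), and the endoderm nucleoplasm change of -0.37 became 0.39. In ectoderm cytoplasm ACVR2B was higher by 0.79 (SE 0.14, adjusted p = 1e-04), which was lost on TPM (log2 0.18, adjusted p = 0.423). In mesoderm cytoplasm it rose by 0.49 (SE 0.14, adjusted p = 0.0059), with no alternative losing the call. The leading transcript of ACVR2B was estimated at 4500 bases in endoderm, 7140 in mesoderm, 10600 in hPSC and 12500 in ectoderm.

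**Figure D2:**
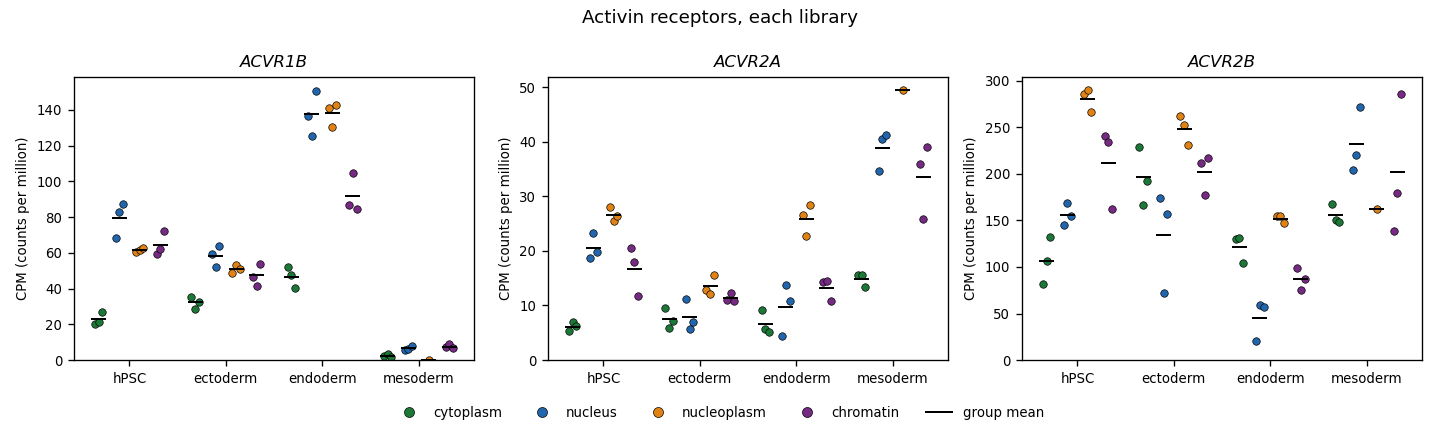
CPM (vertical axis, from 0) of ACVR1B, ACVR2A and ACVR2B in each library of the 4 cell types, coloured by fraction, with a line at each group mean; mesoderm nucleoplasm is 1 library. ACVR1B stays below 10 CPM in mesoderm and ACVR2B is low in endoderm nucleus, where replicate 1 holds 20.5 CPM.

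SMAD2 and SMAD3 are the receptor-activated SMADs of this pathway. SMAD2 (ENSG00000175387, chr18:47808957-47931146, minus strand) was highest in ectoderm on chromatin, in cytoplasm and in nucleoplasm, and in mesoderm in nucleus. On chromatin ectoderm held 238, 229 and 212 CPM, against 67.4, 61.2 and 48.9 in hPSC, 89.2, 81.8 and 85.9 in endoderm, and 131, 123 and 135 in mesoderm. In cytoplasm the values were 173, 131 and 151 in ectoderm, 64.8, 62.4 and 64.8 in hPSC, 88.8, 88.9 and 79.1 in endoderm, and 102, 88.1 and 82.3 in mesoderm. In nucleoplasm ectoderm held 169, 154 and 152 CPM, hPSC 66.4, 62.7 and 71.1, and endoderm 42.5, 43.6 and 48.1. Ectoderm did not overlap any other cell type in these 3 fractions. Between ectoderm and hPSC the same held for 73.9% of all genes tested on chromatin, 75.4% in cytoplasm and 80.3% in nucleoplasm. Against hPSC, SMAD2 rose in ectoderm by 1.95 on chromatin (SE 0.15, adjusted p = 1.39e-07), 1.15 in cytoplasm (SE 0.09, adjusted p = 2.32e-08) and 1.19 in nucleoplasm (SE 0.08, adjusted p = 1.5e-12). In mesoderm it rose by 1.24 on chromatin, 1.03 in nucleus and 0.45 in cytoplasm. None of those 6 calls was lost. Mesoderm nucleus held 85.8, 91.1 and 107 CPM and overlapped ectoderm nucleus (87.4, 38.1 and 69.1). In ectoderm nucleus replicate 2 was low, and the log2 change of 0.67 (adjusted p = 0.0451) was lost in 9 of 13 alternatives. In endoderm the sign differed by fraction: 0.25 in cytoplasm (adjusted p = 0.0297, lost in 7 of 12), 0.72 on chromatin (adjusted p = 0.000952, lost on TPM), and -0.70 in nucleus (adjusted p = 0.0396, lost in 7 of 12). Endoderm nucleus replicate 1 held 8.53 CPM beside 27.2 and 26.1, and without it the nucleus change was -0.40 (adjusted p = 0.12).

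SMAD3 (ENSG00000166949, chr15:67063763-67195195, plus strand) was highest in mesoderm. In cytoplasm it held 68.2, 60.6 and 55.6 CPM there, 50.3, 40.2 and 46.8 in ectoderm, 29.7, 24.3 and 24.8 in endoderm, and 18.5, 16.4 and 19.8 in hPSC. The 4 cell types formed this order with no overlap, where 59.5% to 75.4% of all genes tested did not overlap between a derived cell type and hPSC. On chromatin mesoderm held 83.6, 96.8 and 89.4 CPM and ectoderm 56.6, 50.1 and 55.2. Endoderm chromatin (44.8, 51.4 and 48.7) overlapped ectoderm, and the 2 did not differ in the test (log2 0.02, SE 0.15, adjusted p = 0.926). Against hPSC, SMAD3 rose in mesoderm by 1.70 in cytoplasm (SE 0.11, adjusted p = 4.18e-09), 1.60 in nucleus and 1.74 on chromatin. It rose in ectoderm by 1.24 in cytoplasm (SE 0.11, adjusted p = 6.65e-08), 1.11 in nucleus, 0.89 on chromatin and 0.76 in nucleoplasm. In endoderm it rose by 0.91 on chromatin (SE 0.16, adjusted p = 0.000216). These calls held in every alternative run. The endoderm change was 0.36 in cytoplasm (adjusted p = 0.011), 0.74 in nucleus (adjusted p = 0.00105) and 0.36 in nucleoplasm (adjusted p = 0.0027). Those were lost in 3, 2 and 1 of 12 alternatives, and the nucleoplasm value turned to -0.26 without TMM.

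SMAD4 (ENSG00000141646, chr18:51028394-51085045, plus strand), the partner shared with BMP signalling, was higher in ectoderm than in hPSC. Chromatin held 183, 176 and 178 CPM in ectoderm against 92.4, 102 and 89.9 in hPSC, and cytoplasm 155, 132 and 137 against 80.2, 94.3 and 100. It rose by 0.92 on chromatin (SE 0.14, adjusted p = 6.45e-05), 0.54 in cytoplasm (SE 0.10, adjusted p = 0.000166) and 0.41 in nucleoplasm (SE 0.07, adjusted p = 2.55e-05), calls that no alternative lost. In ectoderm nucleus the change of 0.59 (adjusted p = 0.0196) was lost in 4 of 13 alternatives. In endoderm SMAD4 was low in the nuclear fractions, at 12.6, 28.8 and 32.8 CPM in nucleus and 33.2, 35.1 and 34.9 in nucleoplasm, against 66.7, 59.4 and 66.0 and 90.7, 84.8 and 91.3 in hPSC. The endoderm change was -1.06 in nucleus (adjusted p = 0.000579), -0.85 in nucleoplasm (adjusted p = 7.94e-10), -0.43 on chromatin and -0.37 in cytoplasm, all called. On TPM the first 2 were not called (-0.34 and -0.14), the chromatin value was 0.27 and the cytoplasm value turned to 0.94. The endoderm table split SMAD4 over 2 unnamed transcripts of an estimated 4050 and 7190 bases, where the hPSC table had 1 of 9530. Mesoderm differed little from hPSC, with 0.30 in cytoplasm (adjusted p = 0.0162, lost in 3 of 12 alternatives), 0.41 in nucleus and 0.30 on chromatin, the last 2 not called.

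SMAD7 (ENSG00000101665, chr18:48919853-48952052, minus strand) is the inhibitory SMAD that is induced by the signal it blocks. It was high in endoderm and mesoderm and low in ectoderm. Its chromatin libraries held 107, 90.3 and 111 CPM in endoderm, 48.5, 50.9 and 44.7 in mesoderm, 8.04, 9.82 and 12.2 in hPSC, and 2.82, 3.78 and 3.05 in ectoderm. In cytoplasm they held 68.4, 53.2 and 52.6 in endoderm, 45.4, 46.0 and 41.4 in mesoderm, 4.08, 7.49 and 6.90 in hPSC, and 2.87, 1.17 and 2.71 in ectoderm. The order endoderm, mesoderm, hPSC, ectoderm held without overlap in both. Between a derived cell type and hPSC, 54.8% to 73.9% of all genes tested did not overlap on chromatin and 59.5% to 75.4% in cytoplasm. In nucleus endoderm (39.1, 59.2 and 63.0) and mesoderm (48.1, 51.7 and 53.2) overlapped. Against hPSC, SMAD7 rose in endoderm by 3.02 in cytoplasm (SE 0.21, adjusted p = 1.23e-08), 3.82 in nucleus, 3.54 on chromatin and 3.36 in nucleoplasm. It rose in mesoderm by 2.75 in cytoplasm (SE 0.21, adjusted p = 2.6e-08), 3.23 in nucleus and 2.37 on chromatin. In ectoderm it fell by 1.60 in cytoplasm (SE 0.26, adjusted p = 3.85e-05), 1.63 on chromatin, 2.19 in nucleoplasm and 1.04 in nucleus. Only the ectoderm nucleus call was lost in any alternative, on the combined assembly (log2 -0.57, adjusted p = 0.0523). Endoderm exceeded ectoderm by 4.62 in cytoplasm, 4.86 in nucleus, 5.16 on chromatin and 5.55 in nucleoplasm.

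**Figure D3:**
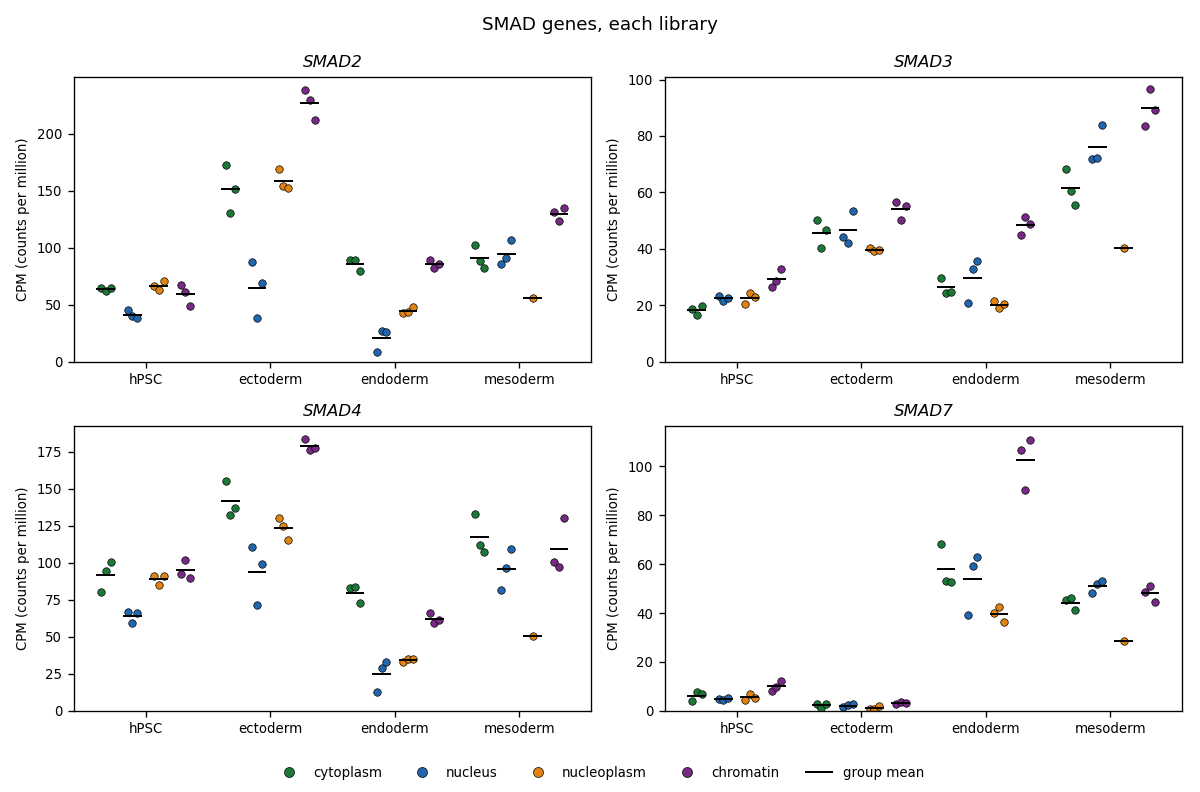
CPM (vertical axis, from 0) of SMAD2, SMAD3, SMAD4 and SMAD7 in each library of the 4 cell types, coloured by fraction, with a line at each group mean; mesoderm nucleoplasm is 1 library. SMAD2 and SMAD4 are highest on ectoderm chromatin, SMAD3 is highest in mesoderm, and SMAD7 is above 39 CPM in every endoderm cytoplasm and nucleus library and below 4 CPM in every ectoderm library.

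NODAL, LEFTY1 and LEFTY2 had no row in ectoderm or mesoderm, so the counts of this paragraph leave them out, with any fall of theirs. Of the 7 members in all 4 tables, 5 were higher and 1 lower in ectoderm than in hPSC in cytoplasm, where 76.0% of all genes were called, 38.0% as higher. In ectoderm nucleus 3 were higher and 2 lower (57.6% of all genes called, 28.7% as higher), on chromatin 3 and 3 (62.9% and 30.5%) and in nucleoplasm 3 and 4 (79.8% and 39.9%). In endoderm cytoplasm 4 were higher and 1 lower than in hPSC (58.1% of all genes called, 29.5% as higher), in nucleus 3 and 4 (57.4% and 28.1%), on chromatin 4 and 2 (61.9% and 28.9%) and in nucleoplasm 4 and 2 (77.1% and 38.3%). In mesoderm cytoplasm 6 were higher and 1 lower (68.1% of all genes called, 34.6% as higher), in nucleus 4 and 1 (54.1% and 26.1%) and on chromatin 4 and 1 (54.6% and 27.1%). Endoderm against ectoderm gave 2 higher and 4 lower in cytoplasm (72.1% of all genes called, 38.0% as higher), 2 and 4 in nucleus (64.7% and 31.5%), 2 and 3 on chromatin (59.3% and 28.8%) and 3 and 3 in nucleoplasm (79.2% and 40.0%). At least 54.1% of all genes were called in each of these comparisons, so the number of members called is no sign of its own, and the sizes and orders above carry the description. The libraries of the 2 groups did not overlap for 54.8% to 86.8% of all genes, so a lack of overlap is no sign of its own either. The comparisons with hPSC share the hPSC libraries. The single mesoderm nucleoplasm library, outside all tests, held 0.312 CPM of ACVR1B, 49.6 of ACVR2A and 162 of ACVR2B. It held 56.0 CPM of SMAD2, 40.4 of SMAD3, 50.3 of SMAD4 and 28.4 of SMAD7, and its column carries replicate number 3 where its label says repeat 1. The calls that held in every alternative were, in endoderm against hPSC, 2 of 5 in cytoplasm, 2 of 7 in nucleus, 2 of 6 on chromatin and 2 of 6 in nucleoplasm. In ectoderm against hPSC they were 4 of 6, 2 of 5, 4 of 6 and 5 of 7 in the same order, and in endoderm against ectoderm 4 of 6, 4 of 6, 4 of 5 and 6 of 6. In mesoderm against hPSC they were 6 of 7 in cytoplasm, 4 of 5 in nucleus and 5 of 5 on chromatin.

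**Figure D4:**
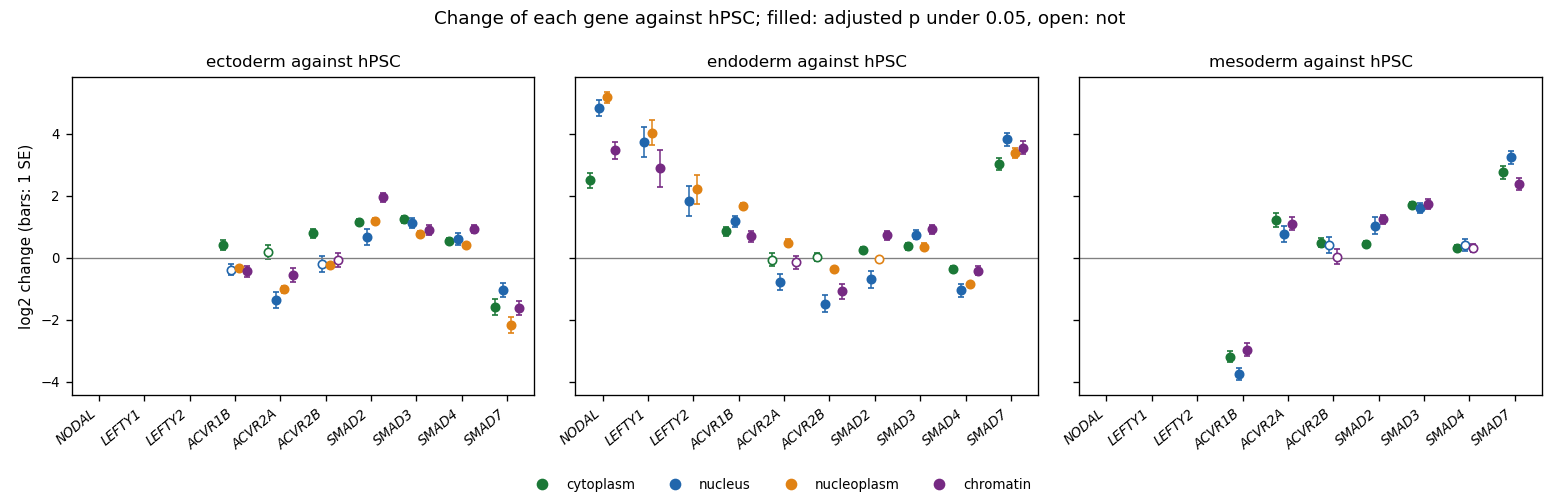
Fitted log2 change (vertical axis, bars of 1 SE) of each member in ectoderm, endoderm and mesoderm against hPSC, coloured by fraction; filled points passed an adjusted p under 0.05 and open points did not, and a gene without points had no row or did not pass the filter. NODAL reaches 5.17 in endoderm nucleoplasm, SMAD7 is above 2 in endoderm and mesoderm and below -1 in ectoderm, and ACVR1B is near -3 or lower in mesoderm.

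Around the members, 40 of 41 other listed genes of the pathway had a row and 20 could be tested between all cell types. A gene needed a row in each of the 4 tables to be among the 20. TDGF1, FOXH1 and GDF3, which were measured in hPSC, were not among them, and neither were EOMES, GSC and CER1, found in endoderm alone. The counts of higher and lower genes can therefore miss falls as well as rises, and they are a description only. In endoderm 12 of the 20 were higher and 2 lower than in hPSC in cytoplasm, with a median log2 change of 0.58 against 0 for all genes, of which 58.1% were called and 29.5% higher. In mesoderm cytoplasm 14 were higher and 1 lower (median 0.73 against 0, with 68.1% of all genes called and 34.6% higher). In ectoderm cytoplasm 8 were higher and 6 lower (median 0.29 against 0.01), near the share of all genes (76.0% called, 38.0% higher). FST, which encodes the activin-binding protein follistatin, rose in cytoplasm in all 3 derived cell types, by 3.44 in endoderm, 2.94 in mesoderm and 1.46 in ectoderm. In ectoderm it was not called in nucleus (-0.12, adjusted p = 0.419) and rose by 0.28 in nucleoplasm. SKIL, a corepressor that SMADs induce and that acts back on them, fell in ectoderm by 2.57 in cytoplasm and 4.68 in nucleus. The NODAL coreceptor TDGF1 averaged 434 CPM in hPSC cytoplasm, 282 in endoderm and 0.0419 in ectoderm on the combined assembly. FOXH1, the SMAD partner, averaged 93.7 CPM in hPSC cytoplasm, 94.2 in endoderm and 1.66 in ectoderm on the combined assembly. The type I receptor TGFBR1 rose in cytoplasm by 1.15 in ectoderm (SE 0.15, adjusted p = 5.32e-06), 0.47 in endoderm and 0.41 in mesoderm, the last 2 lost in 3 and 5 of 12 alternatives. In ectoderm nucleus and nucleoplasm it was not called (log2 0.01 and 0.00). In endoderm it fell by 0.82 in nucleus (lost in 6 of 12 alternatives) and rose by 0.77 in nucleoplasm (lost in 1 of 12). PMEPA1, which restrains SMAD2 and SMAD3 and was tested in fits of 2 cell types, rose by 0.99 in endoderm cytoplasm (adjusted p = 0.00331) and gave -0.10 in mesoderm cytoplasm (adjusted p = 0.667). The ligand gene GDF3 averaged 1.28 CPM in hPSC cytoplasm and 2.58 in endoderm cytoplasm (log2 0.85, adjusted p = 0.0537). Among the 4 tables ACVR1C, another type I receptor, had a row in ectoderm alone (0.838 CPM in cytoplasm) and INHBA, which encodes the subunit of activin A, in mesoderm alone (1.52 CPM). EOMES, GSC and CER1, targets of the pathway in early endoderm, had rows in the endoderm table alone among the 4, at 50.0, 2.37 and 7.00 CPM in cytoplasm. Of the 4 SMADs listed for the BMP branch, 2 could be tested. Both were higher than in hPSC in endoderm and mesoderm cytoplasm, and neither was called in endoderm nucleus or on endoderm or mesoderm chromatin.

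The fractions were compared within each table, so these ratios do not cross assemblies. In endoderm all 10 members could be tested between the libraries labelled cytoplasm and nucleus, and 3 were higher and 7 lower in cytoplasm, where 69.8% of all genes were called, 34.4% as higher. NODAL gave a log2 ratio of -2.98 (SE 0.21, adjusted p = 1.25e-08), with 10.8 to 13.5 CPM against 53.6 to 58.6 in nucleus. LEFTY1 held 16, 7 and 7 counts in the cytoplasm libraries and 130, 56 and 95 in nucleus, and LEFTY2 3, 6 and 6 against 37, 22 and 20. Both were called lower in cytoplasm, but with so few counts there they passed the filter mainly through the nuclear fractions and had to be, so their calls support nothing. In hPSC the NODAL value was -0.55 (SE 0.36, adjusted p = 0.195) and the LEFTY1 value -1.23 (SE 0.72, adjusted p = 0.151), neither called. The difference between endoderm and hPSC in this ratio was not tested for these 2 genes.

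ACVR1B was lower in cytoplasm in all 4 cell types, with log2 ratios of -2.29 in endoderm (SE 0.18), -1.87 in hPSC (SE 0.14), -1.24 in mesoderm (SE 0.30) and -1.201 in ectoderm (SE 0.11), with adjusted p from 3.16e-08 to 0.00372. SMAD2 leaned to cytoplasm, by 0.57 in hPSC (SE 0.13), 0.92 in ectoderm (SE 0.17) and 1.42 in endoderm (SE 0.22), and SMAD4 by 1.04 in endoderm (SE 0.18, adjusted p = 0.000132). These calls held in every alternative run. SMAD7 gave 0.30 in hPSC, -0.35 in ectoderm and -0.10 in mesoderm, none called. In endoderm it gave -0.57 (adjusted p = 0.00223), although the CPM values of the 2 fractions overlapped and the value turned to 0.11 without TMM. Without TMM the median change of all genes moved by -0.71 to 0.70 over the 25 comparisons of groups, and by over 0.1 in 15 of them, so changes here are relative to that median. In hPSC 2 of 9 tested members were higher and 4 lower in cytoplasm (65.4% of all genes called, 35.0% as higher), in ectoderm 2 and 2 of 7 (53.7% and 27.2%) and in mesoderm 1 and 2 of 7 (63.3% and 31.8%). On the authors' TPM all 7 members tested in mesoderm were called, but so were 9914 of all genes, 8867 of them as lower. The 2 that were higher or near 0 there on counts, SMAD4 (0.40) and SMAD2 (0.05), became -0.60 and -0.58. The other pathway genes leaned the same way, with 4 higher and 15 lower of 28 in hPSC (median -0.47 against 0.10 for all genes) and 8 higher and 16 lower of 33 in endoderm (median -0.45 against 0.01). The mitochondrial MT-ND1 moved between these fractions in opposite directions in mesoderm and in the other cell types. The part of fraction purity, or of the fraction labels themselves, in the ratios was not tested.

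Whether the cytoplasm to nucleus ratio differed from that of hPSC was tested for the 7 shared members. In ectoderm it was higher for ACVR2A by 1.61 (SE 0.36, adjusted p = 0.000894), ACVR2B by 1.04 (SE 0.33, adjusted p = 0.0122) and ACVR1B by 0.86 (SE 0.24, adjusted p = 0.00502), that is, 3 of 7 members, where 51.9% of all genes were called, 27.4% as higher. In endoderm it was higher for ACVR2B by 1.47 (SE 0.34, adjusted p = 0.00221), SMAD2 by 0.91 (SE 0.31, adjusted p = 0.0246) and SMAD4 by 0.65 (SE 0.23, adjusted p = 0.0329), and lower for SMAD7 by 0.81 (SE 0.30, adjusted p = 0.0377), where 38.0% were called, 19.7% as higher. The 3 receptor calls in ectoderm and those of ACVR2B and SMAD2 in endoderm held in every alternative. SMAD4 lost its call in 6 of 17 and SMAD7 in 10 of 17. In mesoderm edgeR called 0 of 7 members at an adjusted p under 0.05 (25.6% of all genes called, 18.7% as higher). At an unadjusted p under 0.05 there was 1, ACVR1B. DESeq2 also called 0, and limma on TPM called 2, SMAD2 and SMAD7. Over all genes limma on TPM called 4542 there, 4303 of them as lower.

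**Figure D5:**
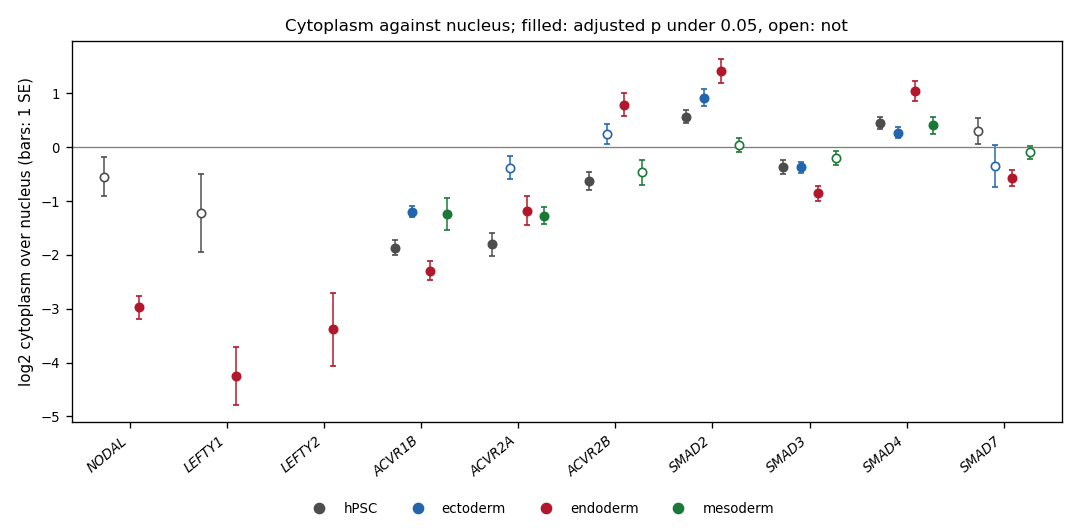
Fitted log2 ratio of cytoplasm over nucleus (vertical axis, bars of 1 SE) for each member in the 4 cell types; filled points passed an adjusted p under 0.05 and open points did not, and a gene without a point had no row or did not pass the filter. NODAL in endoderm lies at -2.98, ACVR1B is below -1 in each cell type, and SMAD2 and SMAD4 in endoderm lie above 1.

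Within the nucleus, chromatin was compared with nucleoplasm in 3 cell types. In endoderm all 3 receptors were lower on chromatin: ACVR2A by 1.55 (SE 0.26, adjusted p = 0.000165), ACVR2B by 1.38 (SE 0.21, adjusted p = 6.98e-05) and ACVR1B by 1.17 (SE 0.17, adjusted p = 4.32e-05). NODAL was lower by 1.25 (SE 0.20, adjusted p = 9.33e-05) with 17.0 to 26.0 CPM against 32.5 to 34.1. LEFTY2 was called lower too, with 0, 8 and 4 counts on chromatin and 18, 26 and 20 in nucleoplasm, a call that the filter fixed in the same way. SMAD7 and SMAD3 were higher on chromatin, by 0.79 (SE 0.14, adjusted p = 0.000286) and 0.68 (SE 0.14, adjusted p = 0.000948). These 7 calls, 2 higher and 5 lower of 10 (53.5% of all genes called, 22.9% as higher), all held in every alternative. LEFTY1 gave -0.43 (SE 0.46, adjusted p = 0.452), SMAD2 0.36 and SMAD4 0.27, none called. In hPSC, 3 of 9 members were lower on chromatin and 0 higher (30.5% of all genes called, 17.1% as higher): ACVR2A by 0.90, ACVR2B by 0.64 and SMAD2 by 0.41. None of the 3 was called on every alternative, and on TPM ACVR2B came to 0 and SMAD2 to 0.15. In ectoderm 2 were higher and 3 lower of 7 (44.1% and 18.5%), and leaving out 1 library at a time left between 1 and 3 calls. These are the only 2 fractions whose same-numbered libraries correlated over 0.1 in every pair, which does not show that they were paired. With the replicate number as a block 3 calls were left, SMAD7 higher and ACVR1B and ACVR2B lower.

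Some members were assembled as several transcripts, and these were tested between cytoplasm and nucleus as well. The fits took the deposited split of reads between transcripts as given, and for some genes that split varied widely between libraries. Over the hPSC libraries each of the 2 SMAD7 transcripts ranged from 0 to 100% of SMAD7 counts. In ectoderm ENST00000241416 ranged from 0 to 100% of ACVR2A counts. Of the member transcripts tested, 1 was higher and 3 lower of 16 in hPSC (39.7% of all transcripts called, 19.6% as higher), 3 and 2 of 22 in ectoderm (13.7% and 7.03%), 5 and 7 of 16 in endoderm (42.1% and 19.3%) and 2 and 4 of 21 in mesoderm (32.0% and 15.3%). In endoderm SMAD7 had another transcript, at a separate assembled locus, with no Ensembl name and an estimated 4770 bases. It made up 16.3% ± 0.79 of SMAD7 counts on chromatin, 12.1% ± 0.10 in nucleoplasm, 7.44% ± 1.65 in nucleus and 0.938% ± 0.21 in cytoplasm (SD, n = 3), and was lower in cytoplasm by 3.32 (SE 0.35, adjusted p = 2.76e-05). The leading SMAD7 transcript gave -0.25 and was not called (adjusted p = 0.177). It carries the name ENST00000262158 but was estimated at 2410 bases, against 4428 annotated. The shorter of the 2 endoderm SMAD4 transcripts had its largest share in cytoplasm. It took 80.4% ± 0.92 of SMAD4 counts in cytoplasm, 72.0% ± 3.50 in nucleus, 63.8% ± 5.43 in nucleoplasm and 55.4% ± 3.96 on chromatin. Both transcripts were higher in cytoplasm than in nucleus. The shorter rose by 1.41 (SE 0.23, adjusted p = 0.000596) and the longer by 0.80 (SE 0.21, adjusted p = 0.0108), the latter call lost on TPM. In mesoderm an unnamed SMAD4 transcript of an estimated 7050 bases fell from 8.85% ± 1.43 of SMAD4 counts in nucleus to 1.65% ± 0.61 in cytoplasm, a log2 change of -1.80 (SE 0.38, adjusted p = 0.00885). NODAL, LEFTY1 and LEFTY2 were each 1 transcript in endoderm, and in the fit over transcripts LEFTY2 gave an adjusted p of 0.0408 that was lost in 8 of 11 alternatives.

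Between genes, levels can be set side by side on the length-corrected TPM scale. In hPSC cytoplasm ACVR2B (17.5 TPM) and SMAD2 (15.2) led, followed by SMAD4 (10.6), ACVR1B (5.28), SMAD7 (3.05), SMAD3 (2.87), ACVR2A (1.11) and NODAL (1.04). In endoderm nucleus NODAL (43.6 TPM) stood with ACVR1B (44.6), above SMAD7 (33.2), ACVR2B (21.8), SMAD4 (8.36), SMAD3 (7.31), ACVR2A (7.31), SMAD2 (7.27), LEFTY1 (6.87) and LEFTY2 (1.49).

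By the correlation of log2 CPM with every gene averaging at least 5 CPM, genes among the most like NODAL over the 24 hPSC and endoderm libraries were SLC39A4 (0.98) and LRRN2 (0.97). For LEFTY1 they were VWF (0.94), SPON2 (0.93) and MXRA8 (0.93), and for LEFTY2 SERPING1 (0.82), ALPL (0.82) and APLP1 (0.81). For SMAD7, over 46 libraries of 4 cell types, they were BAMBI (0.96), which encodes a decoy receptor of the same family, ST3GAL1 (0.95) and ALOX5 (0.93). The libraries share cell type and fraction, so these values describe likeness of pattern between 2 or 4 cell types and no more.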

How the data were processed

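RNA of 4 fractions of 4 cell types was sequenced in 46 libraries. The authors deposited whole-number counts and TPM per assembled transcript. The submitters' processing notes name STAR, RSEM and hg38, without versions. Transcripts were summed per gene name for the levels and per Ensembl gene for the tests. An ectoderm cytoplasm column tied to no sample, 1 in the counts with its counterpart in TPM, was not used. The deposited counts were tested with edgeR 4.0.16 (R 4.3.3) by its quasi-likelihood test after filterByExpr (minimum count 10) and TMM, with Benjamini-Hochberg adjustment over all genes at 0.05. Each fit covered the cell types within a fraction or the fractions within a cell type. The alternatives were DESeq2 1.42.0, no TMM, no filter, the authors' deposited TPM as log2(TPM + 1) in limma 3.58.1, a replicate block, each library left out, a fit of 2 cell types and the combined assembly. Same-numbered libraries correlated over 0.1, in their deviations from the group means, in 17 of 63 pairs of fractions and 15 of 63 of cell types, and in every pair only for ectoderm nucleoplasm and chromatin (0.176, 0.172 and 0.107), 1 of 21 pairs of fractions. Between fractions, same-numbered and differently numbered libraries passed 0.1 in 6 of 18 and 9 of 36 pairs in ectoderm. These shares were 6 of 18 and 4 of 36 in hPSC, 3 of 18 and 10 of 36 in endoderm, and 2 of 9 and 5 of 18 in mesoderm. Whether samples were paired is thus not known. The scripts were tested on simulated data. Depth was 4990408 to 21298678 counts, and floors (3 counts) cover counting error only. The genes named beside the 10 members came from a fixed pathway list and from the 3 genes most like each of NODAL, LEFTY1, LEFTY2 and SMAD7, of which 1 is not reported here. The members and lists were chosen with earlier results of these data known. Gene positions are those of the annotation on GRCh38.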

Additional observations from a re-analysis of the deposited data

Results flagged for a closer look

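In 7 results the cytoplasm to nucleus ratio of a member differed between a derived cell type and hPSC by an interaction test in edgeR with Benjamini-Hochberg adjustment. In ectoderm the log2 difference was 0.86 for ACVR1B (adjusted p = 0.00502), 1.61 for ACVR2A (adjusted p = 0.000894) and 1.04 for ACVR2B (adjusted p = 0.0122). In endoderm it was 1.47 for ACVR2B (adjusted p = 0.00221), 0.91 for SMAD2 (adjusted p = 0.0246), 0.65 for SMAD4 (adjusted p = 0.0329) and -0.81 for SMAD7 (adjusted p = 0.0377). Without endoderm cytoplasm replicate 2, or without hPSC nucleus replicate 1, 2 of the 4 endoderm calls were left. The libraries of ectoderm and endoderm labelled nucleus held fewer nuclear RNAs than their cytoplasm. The libraries of hPSC and ectoderm labelled nucleus held more of the 9 listed cytoplasmic RNAs than their cytoplasm. The part of this in the ratios was not tested.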

How the results depend on the processing

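Of 2442 values of single members under the alternatives, 2203 kept direction and side of the threshold, 158 lost a call, 59 gained one and 22 reversed. With TPM the chromatin to nucleoplasm change reversed in ectoderm for ACVR1B (0.35), ACVR2A (0.15) and ACVR2B (0.17), and in hPSC for ACVR2B (0), SMAD2 (0.15) and SMAD4 (0.40). With TPM endoderm against ectoderm reversed for ACVR2A in cytoplasm (0.86) and for ACVR2B on chromatin (0.28) and in cytoplasm (0.88), nucleoplasm (1.12) and nucleus (0.66). With TPM endoderm against hPSC reversed for ACVR2A on chromatin (1.08), in cytoplasm (1.17) and in nucleus (0.35), for ACVR2B in nucleoplasm (0.39), and for SMAD4 on chromatin (0.27) and in cytoplasm (0.94). With TPM the mesoderm cytoplasm to nucleus change reversed for SMAD2 (-0.58) and SMAD4 (-0.60). Without TMM endoderm nucleoplasm reversed for ACVR2A (-0.14) and SMAD3 (-0.26), and the endoderm cytoplasm to nucleus change for SMAD7 (0.11). With TPM the median change of all genes moved by 0.47 in hPSC and 0.58 in ectoderm for chromatin against nucleoplasm. For mesoderm cytoplasm against nucleus it moved by -0.82. The transcript lengths behind TPM differ between tables, and the reversals between fractions of a cell type do not cross tables. Estimated lengths also differed between libraries within a table, from 5900 to 8580 bases for ACVR2B in hPSC and from 4580 to 8470 for SMAD2 in mesoderm. For ACVR1B in ectoderm they ranged only from 4620 to 4700. The cause of each reversal was not tested.

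With TPM the called members went from 3 to 5 for hPSC chromatin against nucleoplasm, from 4 to 2 for ectoderm and from 3 to 7 for mesoderm cytoplasm against nucleus, from 0 to 2 for the mesoderm ratio, and for endoderm against hPSC from 6 to 3 on chromatin and from 7 to 2 in nucleus. Over all genes, TPM took the calls from 4312 to 7783 for hPSC chromatin against nucleoplasm, 7527 of them higher. It took them from 8586 to 5346 for ectoderm and from 9200 to 9914 for mesoderm cytoplasm against nucleus. For the mesoderm ratio they went from 2734 to 4542, 4303 of them lower. For endoderm against hPSC they went from 6602 to 5936 on chromatin and from 6114 to 5632 in nucleus. The ectoderm transcript count of 5 became 10 with DESeq2, 2 with TPM and 2 without the filter, and the mesoderm one of 6 became 10 with TPM. The combined assembly took ectoderm against hPSC in nucleus from 5 to 3, and a fit of 2 cell types took endoderm against hPSC in cytoplasm from 5 to 3. Ectoderm chromatin against nucleoplasm went from 5 to 3 without TMM.

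Leaving out 1 library gave 1 to 3 calls for ectoderm chromatin against nucleoplasm (5 with all; each of the 6 libraries lowered it). It gave 1 to 5 ectoderm transcripts (5; lowest without ectoderm cytoplasm replicates 1, 2 or 3 or nucleus replicate 3), 2 to 5 for the endoderm ratio (4), and 0 to 1 for the mesoderm ratio (0; 1 without hPSC nucleus replicate 1 or mesoderm cytoplasm replicate 3). Ectoderm against hPSC in nucleus gave 3 to 5 (5; 3 without ectoderm nucleus replicates 1 or 3 or hPSC nucleus replicate 2), and endoderm against hPSC in cytoplasm 3 to 5 (5; 3 without endoderm cytoplasm replicate 1 or hPSC cytoplasm replicate 2). The other counts stayed within 1.5 times.

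With the replicate number as a block (the replicate block), ectoderm chromatin against nucleoplasm went from 5 to 3, and no other count moved by over 1.5 times. The labels do not say whether same-numbered libraries were paired, and the correlations between them cannot settle it. Depth limited LEFTY1, LEFTY2 and ectoderm NODAL, whose libraries often held few counts.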

Other observations

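GDF3, a ligand gene that shares the coreceptor TDGF1 with NODAL, was lower in cytoplasm than in nucleus with log2 ratios of -3.51 for hPSC (SE 0.19, adjusted p = 2.65e-09) and -3.73 for endoderm (SE 0.36, adjusted p = 2.92e-07), and no alternative lost either call. GDF3 was low in both cytoplasms and may have passed the filter mainly through other fractions. The hPSC libraries labelled nucleus also held more of the listed cytoplasmic RNAs than hPSC cytoplasm (66100 to 76270 against 44500 to 44990 CPM). The part of the fraction labels in these ratios was not tested. BAMBI, the decoy receptor whose pattern was most like that of SMAD7, rose by 4.03 in endoderm cytoplasm (SE 0.19, adjusted p = 1.6e-10) and 4.18 in mesoderm cytoplasm (SE 0.19, adjusted p = 1.04e-10), and fell by 2.31 in ectoderm cytoplasm (SE 0.22, adjusted p = 1.5e-07). In endoderm 2 transcripts of SMAD2 were higher in cytoplasm than in nucleus, ENST00000402690 by 1.83 (SE 0.42, adjusted p = 0.00527) and one with no Ensembl name by 1.54 (SE 0.28, adjusted p = 0.00122). In mesoderm the SMAD2 transcript named ENST00000262160 was lower in cytoplasm by 1.08 (SE 0.24, adjusted p = 0.0104), while the SMAD2 gene sum gave 0.05 (adjusted p = 0.766). That transcript was estimated at 25300 bases, against 34526 annotated. The p-values are those of edgeR.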
